A study of Homo sapiens with 12 samples.

Results

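The genes described here are 10 epithelial keratins, KRT7, KRT8, KRT15, KRT17, KRT18, KRT19, KRT20, KRT34, KRT80 and KRT81, read across 12 arrays of HK-2 cells. They are the probe sets (groups of short oligonucleotides on the array that read one transcript) whose annotated gene symbol is on that list. KRT20 was chosen by its measured level, low in Nnm-treated cells at 48 h, and which values the other keratins were selected on is not recorded, so the Nnm differences of all 10 are given as descriptions. The rule of selection, as recorded, names no threshold. Of the 10 keratins, 7 had a probe set of their own, and all 7 were among the 10907 genes tested. KRT17 and KRT81 are not named by the annotation used here. KRT34 shares its only probe set with a second gene, and that probe set lay between 1.99 and 2.01 (log2 intensity) on all 12 arrays.

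HK-2 is a line of immortalised human proximal tubule cells, and all groups come from this 1 line. The 4 groups of 3 arrays were cells given a low dose of Nnm for 24 h, control vehicle for 24 h, low-dose Nnm for 48 h and control vehicle for 48 h. The labels call the 3 arrays of a group biological replicates, and give neither the full name of Nnm nor the concentration. All cells, controls included, grew in DMEM and Ham's F12 with EGF, hydrocortisone, insulin, transferrin and selenite, and were treated when nearly confluent.

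Keratins are the intermediate filament proteins of epithelial cells. A type I (acidic) keratin pairs with a type II (basic) keratin, the pairs assemble into filaments, and desmosomes and hemidesmosomes anchor these filaments at the cell surface. KRT8 and KRT18 form the standard pair of simple epithelia, including kidney tubules, where they are known to increase after injury. KRT7 and KRT19 mark ducts and the collecting system, and KRT20 is known from intestinal epithelium, gastric surface cells and the umbrella cells of the urothelium. KRT15 is a keratin of basal keratinocytes, KRT17 is induced in stressed epithelia, and KRT34 and KRT81 are hair keratins. The list holds 6 type I genes (KRT15, KRT17, KRT18, KRT19, KRT20 and KRT34) and 4 type II genes (KRT7, KRT8, KRT80 and KRT81).

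Type I genes other than KRT18 lie in a cluster on chromosome 17, and type II genes lie on chromosome 12 with KRT18 beside them. In RefSeq's gene order no other protein-coding gene separates KRT8 from KRT18, KRT80 from KRT7, or KRT15 from KRT19. KRT20 stands 1 protein-coding gene away from KRT10, the type I keratin of suprabasal skin, and 39 such genes away from KRT34. The promoters of these near neighbours are shown because their Nnm differences had opposite signs, as described further on. Each window is RefSeq sequence of GRCh38.p14 on the minus strand, from 250 bases before to 50 bases after the annotated start, at chr17:40885193-40885492 for KRT20 and chr17:40822565-40822864 for KRT10. Capitals mark matches to the motifs searched, on either strand.
KRT20: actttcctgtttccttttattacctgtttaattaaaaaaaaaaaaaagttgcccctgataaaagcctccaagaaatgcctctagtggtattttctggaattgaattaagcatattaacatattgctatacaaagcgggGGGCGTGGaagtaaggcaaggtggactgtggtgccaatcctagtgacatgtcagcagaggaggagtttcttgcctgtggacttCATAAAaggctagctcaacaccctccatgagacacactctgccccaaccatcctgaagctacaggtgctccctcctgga
KRT10: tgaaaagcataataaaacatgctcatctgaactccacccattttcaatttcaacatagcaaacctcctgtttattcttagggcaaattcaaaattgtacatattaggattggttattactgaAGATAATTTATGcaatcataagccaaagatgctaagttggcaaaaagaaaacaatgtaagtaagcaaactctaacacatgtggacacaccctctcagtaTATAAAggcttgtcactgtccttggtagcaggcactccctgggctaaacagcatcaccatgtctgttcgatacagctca

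The motifs were chosen after the values had been seen, and their shares refer to all 35116 RefSeq promoter windows of the same length. The TATA box, TATAAA, which 11.5% of promoters held, began 29 bases before the KRT10 start and was not matched in the KRT20 window. In the KRT20 window, position -29 held the CDX letters TTTATG on the other strand (CATAAA as printed), which 10.6% of promoters held. As printed, these letters differ from TATAAA in the first base only, and they begin at the same position as the KRT10 TATA box. CDX factors are intestinal homeobox proteins. KRT10 matched TTTATG once as well, at -122, directly after the GATA letters AGATAA at -128, a motif held by 10.3% of promoters. The KLF letters CCNCNCCC matched once in the KRT20 window, at -112 on the other strand, and in 56.2% of all promoters. The AP-1 letters TGANTCA, held by 7.71% of promoters, matched in neither window. A match describes letters only, and of the 10 keratins 3 were in the promoter table.

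The values are the authors' GCRMA-processed log2 intensities, and a difference of 1 on this scale is a factor of 2. Because each probe set has its own brightness, levels are compared between arrays and never between genes. The arrays read RNA from whole wells, so fewer cells carrying a transcript and less of it per cell cannot be told apart. Some arrays stood apart from the others of their group. On the first principal component the 6 control arrays lay between 18.6 and 34.4, the Nnm replicates 1 and 3 between -43.2 and -31.2, and the 2 Nnm replicate 2 arrays between -3.28 and -1.55. Replicate 2 also had the widest gap between the 5' and 3' ACTB control probe sets, a sign of RNA quality, at -1.17 to -1.09 log2 in its 4 arrays, against -0.863 to -0.736 in the other arrays. The GAPDH control probe sets, read in the same way, did not set replicate 2 apart. Their gap was 0.0624 to 0.158 in its arrays, against 0.0293 to 0.162 in the other arrays. The part of these features in the results was not tested. Values without both Nnm replicate 2 arrays are given for every keratin, and for other named genes where a call in the text moved.

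The label of the cells was read against marker genes. Of 12 proximal tubule markers with a probe set, 3 passed the filter on low values (log2 above 4 on at least 3 arrays): DPP4 at 11.07 to 12.97, CDH6 at 12.16 to 13.9995 and PAX8 at 10.58 to 11.74. The transport and brush-border markers LRP2, CUBN, AQP1, SLC34A1, SLC5A2, SLC22A6, SLC22A8, GGT1 and ANPEP were below 4 on every array. The 4 urothelial uroplakins UPK1A, UPK1B, UPK2 and UPK3A, markers of the cells that carry KRT20 in the bladder, lay between 1.91 and 2.34 throughout, and 0 of 2 leukocyte markers passed. Of the fibroblast markers 2 of 5 passed, and COL1A1 fell by 0.53 log2 in Nnm cells at 48 h (adjusted p = 0.0491, limma), while DCN differed by -0.17 at 24 h and 0.22 at 48 h. The tubule marker DPP4 rose by 0.77 log2 at 24 h (adjusted p = 0.022) and 1.19 at 48 h (adjusted p = 0.00659). PAX8 rose by 0.65 at 24 h (adjusted p = 0.0398), and CDH6 by 1.38 at 48 h (adjusted p = 0.0141). CDH6 differed by 0.06 at 24 h (adjusted p = 0.902), and PAX8 by 0.61 at 48 h (adjusted p = 0.0599), and neither passed. The PAX8 difference at 48 h passed with the replicate block (adjusted p = 0.0051). It also passed without both Nnm replicate 2 arrays, at 0.80 (adjusted p = 0.00694). Of the distal nephron markers 1 of 6 passed the filter (SLC12A1 at 3.99 to 4.14) and of the endothelial markers 1 of 4 (PECAM1 at 3.80 to 4.66), and neither differed past the threshold, although PECAM1 at 48 h, at 0.46, passed with the replicate block (adjusted p = 0.0275). The part of the markers that moved, in the keratin results, was not tested.

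KRT20, the type I keratin of intestinal and umbrella cells, was lower in Nnm-treated cells at both times. At 24 h it read 3.97, 6.51 and 5.01 log2 in Nnm replicates 1, 2 and 3, against 6.79, 8.05 and 6.83 in the controls. After 48 h the Nnm cells read 4.97, 6.35 and 4.64 log2, against 8.26, 9.37 and 9.13 in controls. The groups did not overlap at either time, and at 24 h Nnm replicate 1 lay just under the filter level of 4 while Nnm replicate 2 lay 0.29 under the lowest control. The difference was -2.06 log2 (SE 0.64), 4.18-fold lower, at 24 h, and -3.60 (SE 0.64), 12.1-fold lower, at 48 h. Both sizes are uncertain, because GCRMA compresses low values and the Nnm arrays of replicates 1 and 3 read 3.97 to 5.01. Without both Nnm replicate 2 arrays these differences were -2.74 and -4.12. Within replicate numbers, Nnm minus control was -2.82, -1.54 and -1.82 at 24 h and -3.29, -3.02 and -4.49 at 48 h.

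**Figure D1:**
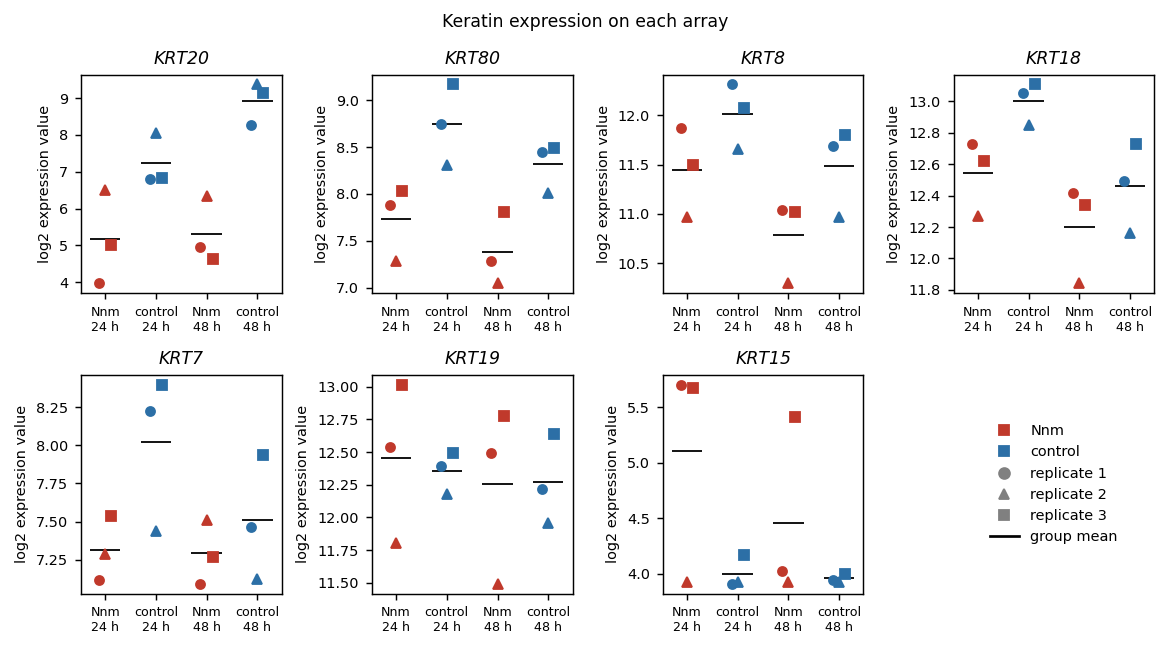
Log2 intensity of the 7 measured keratins on each of the 12 arrays, by group, with each group's mean as a line. KRT20 lies below its controls in Nnm cells at both times, KRT80 does so to a smaller extent, and KRT19 overlaps throughout.

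The wider KRT20 gap at 48 h came with a higher mean control level, while the mean Nnm level was not lower. Nnm replicates 1 and 3 read 3.97 to 5.01, where GCRMA compresses values, so a further fall in Nnm cells could be hidden. Mean KRT20 was 5.32 ± 0.91 log2 in Nnm cells at 48 h, near the 5.16 ± 1.28 of Nnm cells at 24 h, while controls read 8.92 ± 0.59 at 48 h and 7.23 ± 0.71 at 24 h (SD, n = 3 each). Control cells at 48 h were thus 1.69 log2 (SE 0.64) above control cells at 24 h, with no overlap. The difference in Nnm effect between the times was -1.54 log2 (SE 0.91). These values share the 48 h control arrays for which KRT20 was picked, so they are descriptions and carry no p.

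KRT8 and KRT18, the filament pair of simple epithelia, had the same direction in each replicate number but small differences. KRT8 read 11.87, 10.97 and 11.50 log2 in Nnm cells at 24 h, against 12.31, 11.66 and 12.07 in controls. The 48 h values were 11.04, 10.30 and 11.02 in Nnm cells, against 11.69, 10.97 and 11.80 in controls. The groups overlapped at both times, and the differences were -0.57 (SE 0.30) at 24 h and -0.70 (SE 0.30) at 48 h, or -0.33 and -0.45 without both Nnm replicate 2 arrays. Within replicate numbers the KRT8 differences lay between -0.78 and -0.45, every one below 0.

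KRT18, the type I partner of KRT8, read 12.73, 12.27 and 12.62 log2 in Nnm cells at 24 h, against 13.05, 12.85 and 13.11 in controls, without overlap. In Nnm cells at 48 h it read 12.42, 11.84 and 12.34, against 12.50, 12.16 and 12.73 in controls, with overlap. The differences were -0.46 (SE 0.19) at 24 h and -0.26 (SE 0.19) at 48 h, or -0.33 and -0.08 without both Nnm replicate 2 arrays. KRT8 and KRT18 were read by probe sets of the x_at kind, some of whose probes may match other transcripts, and both genes have many pseudogene copies, so their values are uncertain on this point. For the pseudogene KRT8P12, the kept probe set stayed between 4.59 and 5.12, and another that was not kept stayed between 1.98 and 2.14.

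KRT7 and KRT19, the duct keratins, overlapped between Nnm and control arrays at both times. KRT7 (type II) read 7.12, 7.28 and 7.53 log2 in Nnm cells at 24 h, against 8.22, 7.44 and 8.40 in controls. After 48 h it read 7.09, 7.51 and 7.27 in Nnm cells, against 7.46, 7.12 and 7.94 in controls. The differences were -0.71 (SE 0.26) and -0.22 (SE 0.26), or -0.69 and -0.33 without both Nnm replicate 2 arrays. Within replicate numbers KRT7 was lower in all 3 Nnm arrays at 24 h, with differences of -1.10, -0.15 and -0.86, and at 48 h the differences were -0.37, 0.39 and -0.67. KRT19 averaged 12.45 ± 0.61 in Nnm cells and 12.35 ± 0.16 in controls at 24 h, and 12.25 ± 0.67 in Nnm cells and 12.27 ± 0.35 in controls at 48 h (SD, n = 3 each). Its differences were 0.10 (SE 0.35) and -0.02 (SE 0.35), and they became 0.42 and 0.36 without both Nnm replicate 2 arrays. The other probe sets of these genes, 3 for KRT7 and 1 for KRT19, stayed between 1.72 and 2.73 and were not kept.

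KRT80, a type II keratin found in many epithelia, was lower in every Nnm array than in any control of the same time. It read 7.88, 7.28 and 8.03 log2 in Nnm cells at 24 h, against 8.74, 8.31 and 9.17 in controls. At 48 h it read 7.28, 7.05 and 7.81 in Nnm cells, against 8.45, 8.005 and 8.49 in controls. The groups did not overlap, although at 48 h Nnm replicate 3 lay 0.19 under the lowest control. The differences were -1.01 (SE 0.28) and -0.94 (SE 0.28), and -0.78 and -0.77 without both Nnm replicate 2 arrays.

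KRT15, the basal keratinocyte keratin, was near the filter level of 4 in most arrays. It read 5.70, 3.93 and 5.67 log2 in Nnm cells at 24 h, against 3.91, 3.93 and 4.17 in controls. At 48 h it read 4.03, 3.93 and 5.41 in Nnm cells, against 3.94, 3.93 and 4.002 in controls. Only 3 Nnm arrays, replicates 1 and 3 at 24 h and replicate 3 at 48 h, stood clear of the control range, and Nnm replicate 2 equalled its control. KRT15 passed the filter on low values mainly through those arrays, so its differences of 1.10 (SE 0.47) and 0.50 (SE 0.47) describe few arrays. Without both Nnm replicate 2 arrays they were 1.69 and 0.76.

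**Figure D2:**
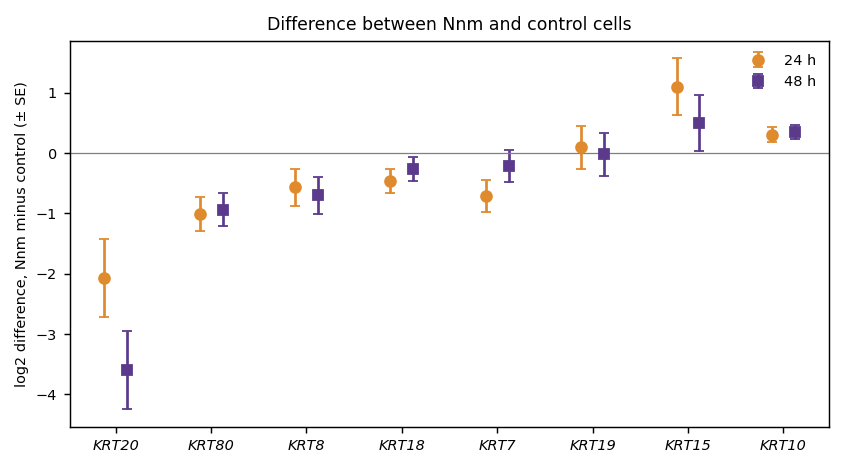
Log2 difference of Nnm minus control with its SE for the 7 measured keratins and for KRT10, described further on, at 24 h and 48 h. KRT20 has the lowest values, -2.06 and -3.60, KRT80 lies near -1 at both times, and KRT15 and KRT10 lie above 0.

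At the call rule used here (limma, adjusted p under 0.05 over all 10907 genes), 2 of the 7 measured keratins passed at 24 h, KRT20 and KRT80, both lower, beside 19.4% of all genes called and 8.85% called lower. At 48 h the same 2 passed, beside 13.8% of all genes called and 5.34% called lower. Because these contrasts are treated as used by the choice of keratins, nothing is read from the counts. The median difference of the 7 was -0.57 at 24 h and -0.26 at 48 h, against 0.01 and 0.02 over all genes. Groups did not overlap for 3 of 7 keratins at 24 h, KRT20, KRT80 and KRT18, all lower, beside 39.8% of genes (18.7% lower), and for 2 of 7 at 48 h, KRT20 and KRT80, beside 36.1% (15.8% lower). With the replicate number as a block, 6 of 7 keratins passed at 24 h beside 38.8% of genes, all but KRT19 and with KRT15 higher, and 3 of 7 at 48 h (KRT20, KRT80 and KRT8) beside 32.2%. The SEs given with each keratin come from the fit without the block. With the block the SE of the Nnm difference was smaller, 0.11 for KRT8, 0.11 for KRT80 and 0.10 for KRT18 at each time. For KRT19 it was 0.18, for KRT7 0.22, for KRT20 0.32 and for KRT15 0.38. Without both Nnm replicate 2 arrays, 3 of 7 passed at 24 h beside 34% of genes (KRT20 and KRT80 lower, KRT15 higher), and KRT20 alone at 48 h beside 28.9%.

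The call on KRT20 at 24 h lay close to the threshold in the fit without the block. Of 12 fits without the block that each left out 1 array, 2 kept it. These were the fits without Nnm replicate 2 of 24 h or of 48 h. Leaving out other 48 h arrays, which are not part of this contrast, ended the call as well. KRT80 kept its call in 7 of 12 such fits at 24 h and 3 of 12 at 48 h. The KRT20 difference at 48 h, by which the gene was chosen, ranged from -4.12 to -3.26 in these fits, which is no sign of stability.

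The change in Nnm effect between the times is built from the same contrasts, so for the keratins it is given as a description. The change in effect, 48 h minus 24 h, was 0.49 log2 (SE 0.37) for KRT7, -0.60 (SE 0.67) for KRT15 and 0.20 (SE 0.27) for KRT18. Among the others, it was -0.13 (SE 0.43) for KRT8, -0.12 (SE 0.50) for KRT19 and 0.07 (SE 0.39) for KRT80. In limma's fit 0 of these 6 passed at an adjusted p under 0.05 and 0 of 6 at an unadjusted p under 0.05, beside 0 of 10907 genes adjusted and 698 unadjusted. With the replicate block 0 of the 6 passed, beside 0.0183% of genes, and without both Nnm replicate 2 arrays 0 of the 6, beside 0.33% of genes. At these SEs, missing the threshold does not show that the effects were equal.

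Control cells themselves were compared between the times to give the keratins' course without the compound. The same control arrays enter the Nnm contrasts, so these values are not fully independent of the choice of genes. Means of KRT18, KRT8, KRT7 and KRT80 were lower at 48 h than at 24 h, and of these KRT18 did so without overlap. With KRT20, 2 of the 7 keratins had no overlap between the control groups, beside 26.3% of all genes. KRT18 averaged 12.46 ± 0.28 log2 in controls at 48 h and 13.005 ± 0.136 at 24 h (SD, n = 3 each). That difference of -0.54 (SE 0.19) did not pass with all arrays in the fit (adjusted p = 0.233, limma) and passed with the replicate block (adjusted p = 0.0161). KRT8, at -0.53 (SE 0.30), and KRT80, at -0.43 (SE 0.28), likewise passed only with the block (adjusted p = 0.0218 and 0.0474), and KRT7, at -0.51 (SE 0.26), in neither fit (0.385 without and 0.18 with the block). KRT15 and KRT19 differed by -0.04 and -0.08. Thus 0 of these 6 keratins passed without the block, beside 0.128% of all genes, and 3 of 6 with it, beside 8.47%. Without both Nnm replicate 2 arrays 0 of the 6 passed, beside 0.578% of genes.

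The keratins also moved with the replicate number, and in opposite directions. The replicate 2 array was the lowest of its group in all 4 groups for KRT8, KRT18, KRT19 and KRT80, beside 12.3% of all genes. For KRT20 it was the highest in all 4 groups, beside 6.46% of all genes. On replicate 2, the deviation from the group mean was 0.45 to 1.34 log2 for KRT20, -0.52 to -0.36 for KRT8 and -0.76 to -0.18 for KRT19. Replicate 2 is the replicate with the wider ACTB gap, while its GAPDH values overlapped those of the other arrays. The part of RNA quality or culture in this pattern was not tested.

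**Figure D3:**
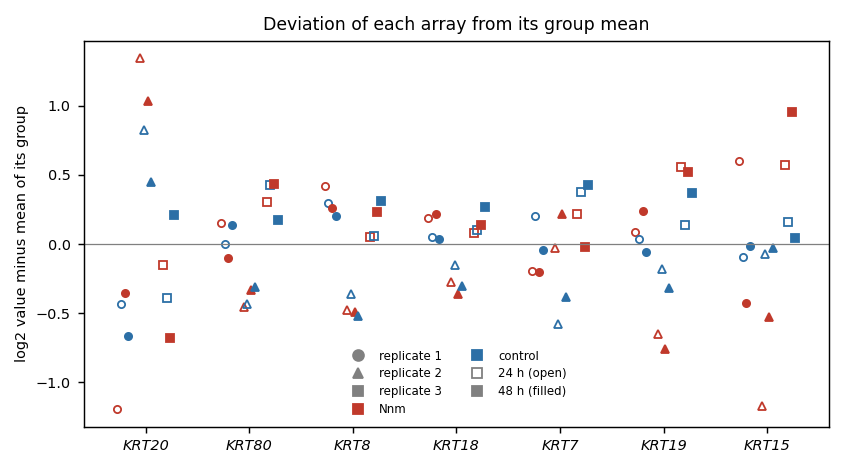
Deviation of each array from its group mean, in log2 units, for the measured keratins by replicate number. Replicate 2 arrays of KRT20 sit above 0, and those of KRT8, KRT18, KRT19 and KRT80 sit below 0, in all 4 groups.

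Over the 12 arrays, which share groups and replicate numbers, the keratins varied together to different degrees. KRT8 and KRT18 had a Pearson correlation of 0.955, and 0.947 after group means were removed. KRT80 followed the pair, at 0.865 with KRT8 and 0.837 with KRT18. KRT20 did not follow them: its correlation with KRT8 was 0.109 over all arrays and -0.873 after group means were removed, and with KRT80 it was 0.397 and -0.785. These are descriptions over 12 arrays and carry no test.

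Outside the keratins, the genes whose level over the 12 arrays was most like that of KRT20 were UQCRC2 (r = 0.965), a subunit of mitochondrial complex III, USP25 (0.960), a deubiquitinase, GALK2 (0.959), a sugar kinase, HSD17B7 (0.955), a cholesterol synthesis enzyme, and STARD4 (0.950), a cholesterol carrier. STARD4 averaged 9.52 ± 0.18 log2 in Nnm cells and 10.30 ± 0.07 in controls at 48 h (SD, n = 3 each), a difference of -0.77. For KRT80 the closest were VDAC1 (0.970), a channel of the outer mitochondrial membrane, MRPL4 (0.965) and MRPL38 (0.962), both mitochondrial ribosomal proteins, ALAS1 (0.956), the first enzyme of haem synthesis, and YWHAG (0.956), a 14-3-3 protein. MRPL4 averaged 8.18 ± 0.23 in Nnm cells and 9.13 ± 0.35 in controls at 24 h, a difference of -0.95.

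Among 37 other keratin genes with a probe set, KRT10, the neighbour of KRT20, was the only one tested. The 45 probe sets of the other keratin genes and of keratin pseudogenes that were not kept reached at most 3.35 log2. None of them varied by more than 0.234 over the arrays. KRT10 read 10.65, 10.43 and 10.78 in Nnm cells at 24 h, against 10.24, 10.23 and 10.47 in controls. At 48 h it read 10.56, 10.41 and 10.52 in Nnm cells, against 10.03, 10.13 and 10.28 in controls. The groups overlapped at 24 h and did not at 48 h, in the opposite direction to KRT20. The differences of 0.31 (SE 0.12, adjusted p = 0.0975, limma) and 0.35 (SE 0.12, adjusted p = 0.0785) did not pass, and with the replicate block both did (adjusted p = 0.0271 and 0.0201). Without both Nnm replicate 2 arrays they were 0.40 and 0.39 and passed as well (adjusted p = 0.0303 and 0.037).

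Of the desmosome and hemidesmosome genes, which anchor keratin filaments, 0 of 14 tested passed at either time (limma), beside 19.4% and 13.8% of all genes. At an unadjusted p under 0.05, 1 passed at 24 h and 4 at 48 h, beside 3982 and 3534 of all 10907 genes. Their median difference was 0.07 at 24 h and -0.07 at 48 h. With the replicate block, 3 were higher and 2 lower at 24 h, and 2 higher and 2 lower at 48 h, beside 38.8% and 32.2% of all genes called.

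Among 11 tested genes of other intermediate filaments and the lamins of the nuclear envelope, 1 rose and 4 fell at 24 h, beside 19.4% of all genes called, and 1 rose and 2 fell at 48 h, beside 13.8%. With the replicate block 3 rose and 7 fell at 24 h, beside 38.8% of all genes called. In that fit 2 rose and 4 fell at 48 h, beside 32.2%. NEFL, the neurofilament light chain, read 6.22, 6.51 and 6.64 log2 in Nnm cells at 24 h, against 8.17, 7.96 and 7.72 in controls, and 5.16, 5.97 and 4.94 in Nnm cells at 48 h, against 6.85, 6.91 and 6.11 in controls. Its groups did not overlap, and it fell by 1.49 (adjusted p = 0.00923) and 1.27 (adjusted p = 0.0186). The mean of its probe sets gave -1.09 at 24 h, which did not pass (adjusted p = 0.0516). BFSP1, a lens filament protein, rose by 1.29 (adjusted p = 0.0123) and 1.15 (adjusted p = 0.0212). At 24 h LMNB2, a B-type lamin, fell by 0.96 (adjusted p = 0.0112), NEFH, the neurofilament heavy chain, by 0.86 (adjusted p = 0.0351) and LMNA, the A-type lamin, by 0.79 (adjusted p = 0.0359, and 0.0683 without both Nnm replicate 2 arrays). LMNA fell by 0.95 at 48 h (adjusted p = 0.0247), but its 5 probe sets disagreed, ranging from -0.89 to 0.12 at 24 h and from -0.99 to -0.14 at 48 h, and their mean did not pass at 48 h (-0.51, adjusted p = 0.127). Named here after their values were seen, NEFM, the neurofilament medium chain, differed by -1.71 (adjusted p = 0.0643) and -1.95 (adjusted p = 0.0517), and VIM, the mesenchymal filament vimentin, by 0.03 and 0.27, and neither passed. With the replicate block NEFM passed at both times (adjusted p = 0.0063 and 0.00517), and without both Nnm replicate 2 arrays NEFM passed at -2.21 and -2.58 (adjusted p = 0.00321 and 0.00203) and VIM at 48 h at 0.45 (adjusted p = 0.026).

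Of 8 keratin-binding or keratin-cleaving proteins, 1 rose and 2 fell at 24 h, beside 19.4% of all genes called, and 1 fell at 48 h, beside 13.8%. SFN, the 14-3-3 sigma protein, which binds phosphorylated keratins, read 10.75, 11.14 and 10.47 log2 in Nnm cells at 24 h, against 11.70, 11.80 and 11.66 in controls, and 10.06, 10.52 and 10.33 in Nnm cells at 48 h, against 11.47, 11.28 and 11.71 in controls. Every Nnm array lay below every control, and SFN fell by 0.93 (SE 0.18, adjusted p = 0.0102) and 1.18 (SE 0.18, adjusted p = 0.00604). FAM83H, which recruits casein kinase to keratin filaments, fell by 1.19 at 24 h (adjusted p = 0.0207). DNAJB6, a chaperone that binds KRT18, rose by 1.21 at 24 h (adjusted p = 0.0178). At 48 h FAM83H was at -0.68 (adjusted p = 0.133) and DNAJB6 at 0.86 (adjusted p = 0.0652), and neither passed. With the replicate block both did (adjusted p = 0.0386 and 0.0142), and without both Nnm replicate 2 arrays DNAJB6 did, at 1.11 (adjusted p = 0.00025).

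Among 7 tested epithelial transcription factors, 1 rose and 1 fell at each time, beside 19.4% of all genes called at 24 h and 13.8% at 48 h. With the replicate block 1 rose and 2 fell at 24 h, beside 38.8% of all genes called. In that fit 2 rose and 3 fell at 48 h, beside 32.2%. GATA6 read 5.30, 4.97 and 6.41 log2 in Nnm cells at 24 h, against 3.87, 3.67 and 3.97 in controls, and 6.35, 5.21 and 6.31 in Nnm cells at 48 h, against 3.65, 4.01 and 4.36 in controls. Of the 6 control arrays 2 were above the filter level of 4, so GATA6 passed the filter through the Nnm arrays, where it was high, and its count is no support for the list. GATA6, a factor of endoderm and gut epithelium, rose by 1.72 (adjusted p = 0.016) and 1.95 (adjusted p = 0.0133), sizes that are uncertain because GCRMA compresses low values. KLF5, a factor of proliferating intestinal cells, fell by 0.70 (adjusted p = 0.0154) and 0.59 (adjusted p = 0.033). Of the urothelial and cornified differentiation genes 1 was tested, SPRR1A, and it did not pass. Over all 6 lists, 10 of 42 genes passed at 24 h (3 higher, 7 lower, 23.8%) beside 19.4% of all genes, and 6 of 42 at 48 h (2 higher, 4 lower, 14.3%) beside 13.8%. With the replicate block 22 and 19 of the 42 passed, beside 38.8% and 32.2% of all genes, and without both Nnm replicate 2 arrays 18 and 15 passed, beside 34% and 28.9%. GATA6 is among the genes counted as higher. The lists were chosen with earlier results of these data known, so their counts and adjusted p are descriptions.

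Of the list gene calls refitted without each array in turn, with no replicate block, those of SFN at both times and of NEFL at 24 h held throughout. The LMNA call at 24 h was not among those refitted. At 24 h, LMNB2, BFSP1, NEFH, DNAJB6, FAM83H, KLF5 and GATA6 each lost theirs without control 24 h replicate 3 (DNAJB6 had its largest adjusted p, 0.0733, without Nnm 24 h replicate 3). NEFH had the largest adjusted p of these, 0.133. Some were lost as well without Nnm 24 h replicate 1 or 3 or control 24 h replicate 1. At 48 h, NEFL, BFSP1, LMNA, GATA6 and KLF5 each lost theirs without Nnm 48 h replicate 1 or 3, or without control 48 h replicate 1, with adjusted p up to 0.116, for KLF5. Leaving out control 48 h replicate 2 ended the NEFL call, and control 48 h replicate 3 those of BFSP1, LMNA and KLF5.

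**Figure D4:**
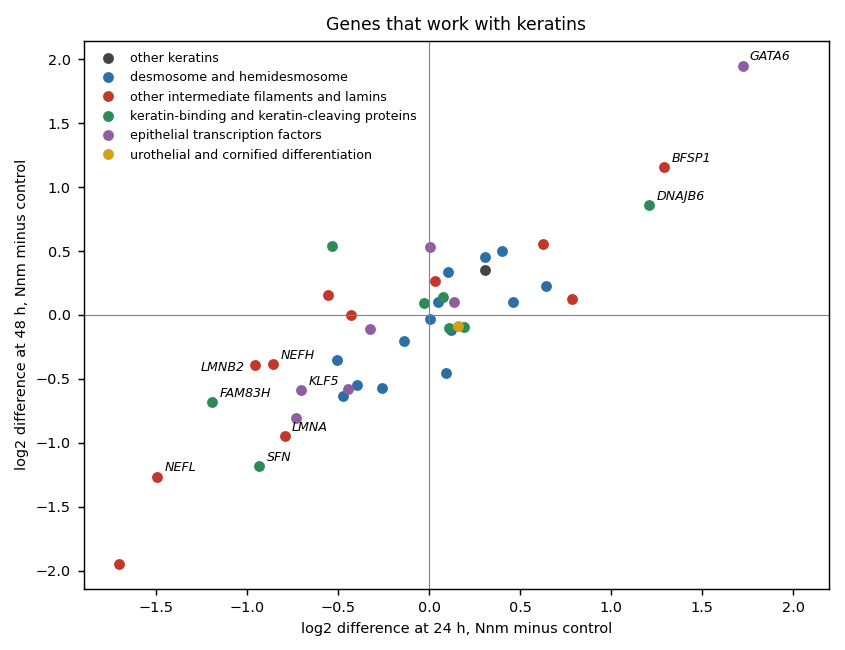
Log2 difference of Nnm minus control at 24 h (x axis) and at 48 h (y axis) for the 42 tested genes of the 6 lists, with genes past the threshold at either time named. GATA6 and BFSP1 lie in the upper right, and NEFL and SFN lie in the lower left, where the unnamed lowest point is NEFM. With all arrays in the fit and no replicate block, NEFM did not pass.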

How the data were processed

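Total RNA of 12 HK-2 cultures was labelled with biotin and hybridised to Affymetrix arrays. The authors deposited log2 values per probe set, processed with GCRMA per the submitters' processing notes, with the version and annotation not given in the sources used here. That the scale is log2 was taken from the range of the values. GCRMA corrects background by probe sequence and pulls dim probe sets to a narrow floor, which compresses low values. Of 54675 probe sets, 41091 had 1 gene symbol in the platform annotation, 1801 several and 11721 none, besides 62 control probe sets. A probe set with 1 symbol was kept above log2 4 on at least 3 arrays (19832), and each of the 10907 genes was read by its kept probe set with the highest mean, which 5320 genes chose among several. Limma 3.58.1 in R 4.3.3 fitted all 4 groups together (lmFit, eBayes), with Benjamini-Hochberg adjustment over all genes and a threshold of 0.05. The number of arrays, 3 a group, limits the precision, and SDs are over 3 arrays. The script was tested on simulated data.

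Replicate numbers come from the labels. Arrays of the same number and time deviated together from their group means (correlations of 0.34 to 0.512, against -0.587 to 0.119 between numbers), so the numbers were taken to pair the arrays, and the fit with the replicate block is given where it moved a count or a call in the text. The members and lists were chosen with earlier results of these data known. Named were all 10 keratins, up to 4 genes per list and time with the smallest p among those that passed, the 5 genes most like KRT20 and like KRT80, cell type markers and control probe sets. Genes named outside that rule (LMNA at 24 h, VIM, NEFM, SPRR1A, KRT10, KRT8P12, KRT10-AS1) were chosen after their values were seen. Alternatives varied the filter, the probe set rule, the normalization, the weights and the arrays. Figures were drawn with matplotlib 3.10.9 in Python 3.11.15.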

Additional observations from a re-analysis of the deposited data

How the results depend on the processing

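Against main counts of 2 keratins at each time and 10 (24 h) and 6 (48 h) of the 42 list genes, counts past the threshold moved by over 1.5 times under 6 alternatives. In the main fit 19.4% of all genes passed at 24 h and 13.8% at 48 h, and this share is given with each alternative. Without a filter, 0 keratins passed at 24 h and 1 at 48 h, and 2 list genes passed at 48 h, beside 6.43% and 4.45% of all genes. With each probe set tested on its own, 1 keratin passed at each time, beside 20.4% of all genes at 24 h and 15.1% at 48 h. With array weights, 4 keratins passed at 24 h (3 lower, 1 higher), and 20 and 16 list genes at 24 h and 48 h. In that fit 44.6% and 31.8% of all genes passed. With the replicate block, 6 keratins passed at 24 h, 3 of the 6 other than KRT20 between the control times (4 with KRT20, whose value there is only a description, against 0), and 22 and 19 list genes. The block fit called 38.8% of all genes at 24 h, 32.2% at 48 h and 8.47% between the control times. With each pair of groups fitted alone, 0 and 1 keratins passed, and 6 and 2 list genes, beside 7.67% and 4.71% of all genes. Without both Nnm replicate 2 arrays, 1 keratin passed at 48 h, and 18 and 15 list genes, beside 34% and 28.9% of all genes. When 1 array was left out at a time, the fit had no replicate block. In these fits 0 to 2 keratins passed at 24 h and 1 to 2 at 48 h. Between control times 0 passed, and 0 in the difference between times. List genes ranged from 2 to 16 at 24 h and from 1 to 12 at 48 h. The share of all genes called in these fits ranged from 3.7% to 29.8% at 24 h and from 2.45% to 22% at 48 h. The cause of these moves was not tested.

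Signs turned, when 1 array was left out, only in small differences that passed no test. For KRT19 the Nnm difference ranged from -0.182 to 0.423 at 24 h and from -0.28 to 0.36 at 48 h. The difference between times ranged from -0.391 to 0.115 for KRT8, from -0.153 to 0.288 for KRT80 and from -0.442 to 0.261 for KRT19. The control time difference ranged from -0.0902 to 0.0373 for KRT15 and from -0.268 to 0.0746 for KRT19. KRT15 had no value under the stricter filter of log2 6, and fitting groups alone gives no difference between times. Values near the filter level, as in KRT15, the GATA6 controls and some KRT20 Nnm arrays, limit what can be read.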

Other observations

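Transcripts related to the keratins were measured beside them. KRT10-AS1, which is annotated antisense to KRT10, averaged 9.07 ± 0.08 log2 in Nnm cells and 8.86 ± 0.19 in controls at 48 h (SD, n = 3 each), a difference of 0.21 that did not pass (adjusted p = 0.223, limma), and of 0.13 at 24 h (adjusted p = 0.441). The KRT8 pseudogene KRT8P12 differed by 0.001 at 24 h and -0.02 at 48 h.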
